A study of Mus musculus and Homo sapiens
Mus musculus with 12 samples.

Results

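The neuregulins and their ErbB receptors are 8 genes, the ligands Nrg1, Nrg2, Nrg3 and Nrg4 and the receptors Egfr, Erbb2, Erbb3 and Erbb4. They were taken by symbol from the 7 mouse brain count tables, which together listed 34496 gene symbols. All 8 were listed in each of the 7 tables. The libraries are labelled as brain, from wild-type C57BL/6J male mice aged 6 to 8 weeks per the study's methods. They were made with snHH-seq, a droplet method that primes total RNA in single nuclei at random positions. Not all nuclei had a brain profile, since 481 in the Index_frozen libraries were rich in kidney transcripts. The libraries formed 4 groups. No_index_frozen (2 libraries) and Index_frozen (2 libraries) came from frozen brain, and No_index_fresh (2 libraries) and Index_fresh (1 library) came from fresh brain. Index libraries were reverse transcribed with a primer that carries a cell barcode, and No_index libraries with a primer that lacks it. No mouse was treated and none carried a modified allele. The labels do not say which libraries share an animal, so no error or p-value below can be read as a spread between animals. SDs, and p-values for storage and primer, measure the spread between libraries. P-values for class comparisons come from 1 fit of all named classes, with library as a block. They measure how class differences vary between libraries, with a spread shared by all classes in the fit and not specific to the pair compared. Exact intervals cover counting error only.

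The 7 libraries held 11198 nuclei, 700 to 3100 per library, with 8605214 to 42439731 unique fragment identifiers (UFIs, the deduplicated fragments counted per gene) in all and a median of 9012 to 27543 UFIs per nucleus. Pairs of libraries shared 32 cell barcodes in total. In 4 of the 7 libraries, primer names in titles and in treatment fields contradict each other. Titles were used here, and the barcode length in the tables (40 bases in Index, 30 in No_index) goes with the titles. Clusters of nuclei were formed without the 8 genes and without 32 further genes of the ErbB pathway, then named from marker genes. Of 25 clusters, 20 were named. The 8 excitatory-like clusters did not meet the main naming rule, and were named by a looser one that rests on Slc17a7 and other markers of their list. The named classes used below were 4185 excitatory-like nuclei (cortical and hippocampal), 351 subcortical excitatory-like, 952 interneuron-like, 1368 striatal projection-like, 190 astrocyte-like, 365 oligodendrocyte-like, 152 OPC-like (oligodendrocyte precursor), 102 endothelial-like, 93 cerebellar granule-like and 34 Purkinje-like nuclei, and 481 nuclei rich in kidney transcripts. A further 5 clusters with 2925 nuclei stayed unnamed. No doublet caller was applied.

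Neuregulins are growth factors made as membrane-bound precursors, which proteases cut to release or expose an EGF-like domain. This domain binds the receptor tyrosine kinases ErbB3 and ErbB4. ErbB2 binds no known ligand and works as the partner of the others, ErbB3 has little kinase activity of its own and signals through its partner, and the EGF receptor is bound by EGF, TGF-alpha and related ligands. In the brain this system is best known for ErbB4 in GABA interneurons, which receive neuregulin from excitatory cells, and outside the brain for Schwann cells and epithelia.

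The genes differ greatly in size, and nuclear RNA counted over whole genes follows gene length. In GRCm38 (RefSeq coordinates, with gene bodies of introns and exons together), Nrg1 lies at chr8:31807452-32891609, Nrg3 at chr14:38365102-39473235 and Erbb4 at chr1:68031884-69108576, and each spans more than 1000 kb. Egfr lies at chr11:16752203-16913907, Nrg2 at chr18:36014581-36197532 and Nrg4 at chr9:55220222-55283654. Erbb2 (chr11:98412484-98437716) and Erbb3 (chr10:128567523-128589635) are the shortest, at 25.2 kb and 22.1 kb. Levels are therefore given as UFIs per 10000 UFIs of a class, as mean ± SD over libraries, when 1 gene is compared between classes. Where genes are compared with each other they are given per 100 kb of gene span. In the GENCODE annotation of this build, genes on the opposite strand overlap Nrg1 (Gm26578 and Gm22140), Nrg2 (4930471G03Rik), Nrg3 (Nrg3os, Gm20641 and Gm20642), Nrg4 (Fbxo22 and Gm15625), Egfr (Egfros) and Erbb2 (Mien1 and Gm25048). The strand setting of the counting is not given in the sources used here, so reads of such pairs could not be told apart, which weighs most on the low counts of Nrg4 and Erbb2.

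Nrg1, the founding neuregulin, was highest in striatal projection-like nuclei. Its level there was 66.2 and 68.6 UFIs per 10000 in No_index_frozen, 75.6 and 72.2 in Index_frozen, 64.4 and 54.7 in No_index_fresh and 73.4 in Index_fresh (67.9 ± 7.05, SD, n = 7). Excitatory-like nuclei followed at 41.3 ± 5.81 (35.7 to 51.3, n = 7), and the ranges of these classes did not overlap. Interneuron-like nuclei were far lower, at 4.36 and 5.53 in No_index_frozen, 10.5 and 8.66 in Index_frozen, 9.36 and 10.3 in No_index_fresh and 8.999 in Index_fresh (8.25 ± 2.38, n = 7). Every interneuron-like value thus lay below every excitatory-like value. Subcortical excitatory-like nuclei had 10.0 ± 2.93 UFIs of Nrg1 per 10000 (n = 7), a range that overlapped that of interneuron-like nuclei. Purkinje-like nuclei had 3.37 ± 2.17 (n = 2). Within the excitatory-like class the pooled level of Nrg1 ran from 9.06 in the cluster led by Dsp and C1ql2, which also had the dentate granule gene Prox1 among its leading genes, and 15.9 in the cluster led by Gm2115 and Fibcd1, to 67.7 in the cluster whose leading genes include the layer 4 gene Rorb.

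Nrg3, a neuregulin that binds ErbB4 and is largely restricted to the nervous system, was high in excitatory-like, subcortical excitatory-like and interneuron-like nuclei alike. Its level was 66.1 ± 5.78 UFIs per 10000 in subcortical excitatory-like, 61.0 ± 6.13 in excitatory-like and 50.4 ± 5.81 in interneuron-like nuclei (n = 7 each), and neighbours in this order overlapped in their ranges. Striatal projection-like nuclei stood apart at 19.4 ± 1.43 (17.6 to 22.1, n = 7), below every interneuron-like library (43.0 to 57.9). Purkinje-like nuclei had 14.1 ± 4.38 (n = 2). A nucleus with at least 1 Nrg3 UFI made up 99.7% of excitatory-like nuclei (exact 95% interval 99.5 to 99.9%, counting error only), and 99.7% after each nucleus was thinned to 5000 UFIs. In kidney-rich nuclei the share was 7.48% unthinned and 4.67% thinned, at median depths of 13327 and 8765 UFIs per nucleus. These nuclei were not uniform: a cluster of 43 of them, led by Chga, Chgb and Col1a1, had 2.28 UFIs of Nrg3 per 10000 and a share of 14.0%, and without it the share was 6.85% unthinned and 3.95% thinned, at 0.0833 UFIs per 10000.

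Nrg2, a ligand known from cerebellum and interneurons, had its highest mean in Purkinje-like nuclei, with 10.9 and 8.98 UFIs per 10000 in the 2 No_index_frozen libraries that held at least 10 of them (9.92 ± 1.32, n = 2). The 34 Purkinje-like nuclei came from No_index libraries only. In a finer clustering of all nuclei, pooled Nrg2 was 8.45 in the Purkinje-like cluster (78 nuclei). It was 8.04 in a cerebellar granule-like cluster of 186 nuclei and 4.51 in another of 95 nuclei. The cerebellar granule-like class of the main clustering had 4.40 ± 0.682 (n = 4). Striatal projection-like nuclei had 5.83 ± 0.486 of Nrg2 (n = 7), interneuron-like nuclei 3.55 ± 0.160 and excitatory-like nuclei 2.91 ± 0.268. Among excitatory-like clusters, Nrg2 went the opposite way to Nrg1 in the Dsp and C1ql2 cluster, at 6.60, and was lowest in the Gm2115 and Fibcd1 cluster, at 1.02. Nrg4, a ligand best known from fat and gut, was low in every class, with means of 0.0236 to 0.135 per 10000, and the ranges of all neighbours in its order overlapped.

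**Figure D1:**
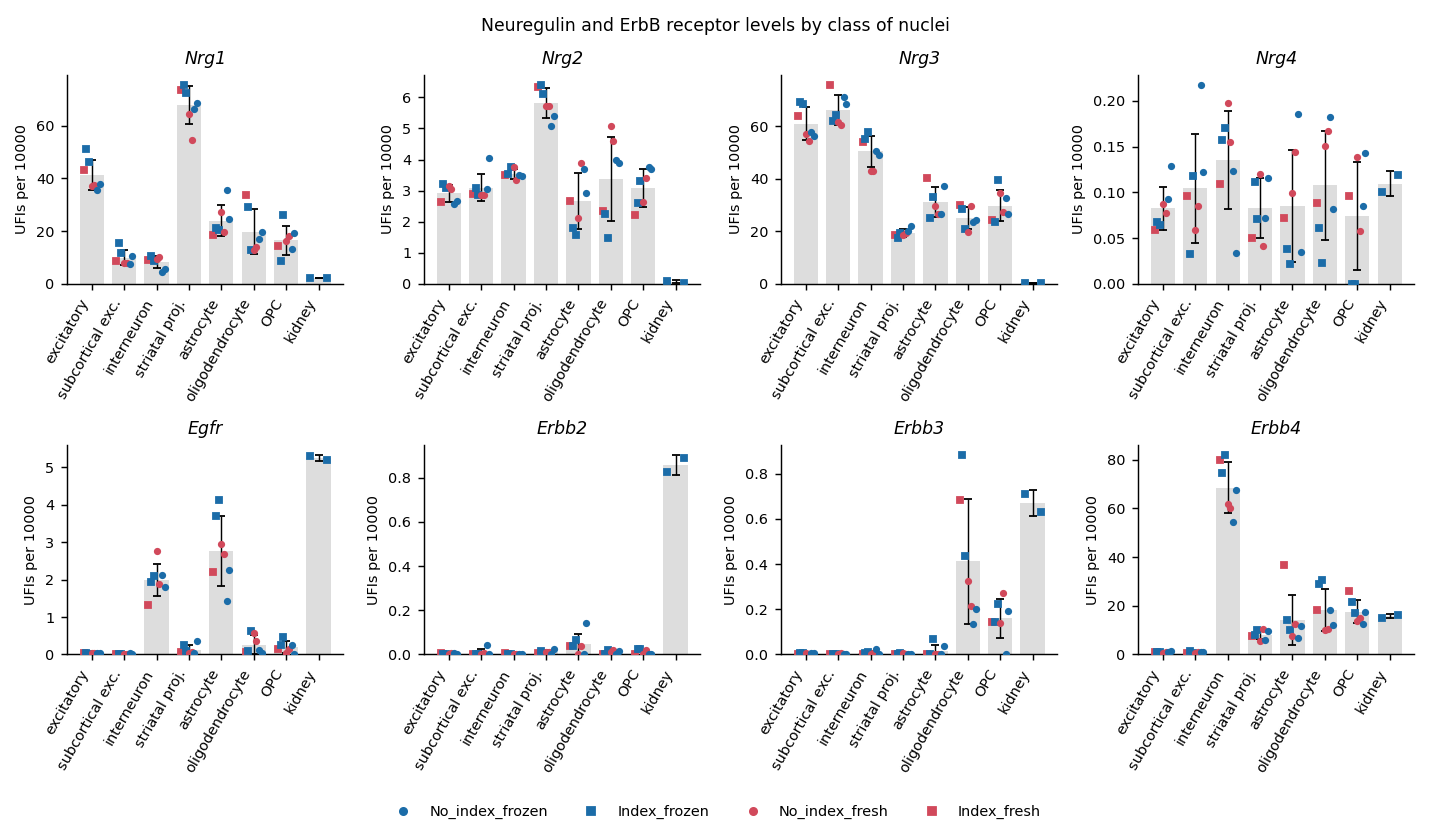
Levels of the 8 genes (y axis, UFIs per 10000 UFIs, linear and starting at 0) in 8 classes of nuclei (x axis). Bars are means over libraries, whiskers SD and points single libraries (circles No_index, squares Index, blue frozen, red fresh); Erbb4 stands at 54.4 to 81.9 in interneuron-like nuclei and at 0.659 to 1.31 in excitatory-like nuclei, and Nrg1 shows the opposite order.

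Erbb4, the neuregulin receptor of interneurons, was far higher in interneuron-like nuclei than in the other neuron classes. In interneuron-like nuclei its level was 54.4 and 67.4 UFIs per 10000 in No_index_frozen, 74.5 and 81.9 in Index_frozen, 61.6 and 60.02 in No_index_fresh and 79.8 in Index_fresh (68.5 ± 10.5, n = 7). In excitatory-like nuclei it was 1.05 and 1.31, 0.951 and 1.03, 0.659 and 1.19, and 0.924, in the same order of libraries (1.02 ± 0.208, n = 7). No library of any other named class reached the lowest interneuron-like value. The next classes by mean were oligodendrocyte-like (18.3 ± 8.51), OPC-like (17.6 ± 4.75), kidney-rich (15.7 ± 0.893, n = 2) and astrocyte-like nuclei (14.2 ± 10.2), whose ranges overlapped. Striatal projection-like nuclei had 8.17 ± 1.95 and Purkinje-like nuclei 0.819 ± 0.0914 (n = 2).

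Nearly all interneuron-like nuclei carried Erbb4. The share with at least 1 UFI was 94.3% (exact 95% interval 92.7 to 95.7%) and 91.8% after thinning to 5000 UFIs. In excitatory-like nuclei it was 36.9% (35.5 to 38.4%) and fell to 18.8% after thinning, at median depths of 12356 and 13327 UFIs per nucleus. In Purkinje-like nuclei, whose Erbb4 level was as low as that of excitatory-like nuclei, it was 73.5% unthinned at a median depth of 26729 UFIs and 34.1% thinned.

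Egfr followed another pattern. Astrocyte-like nuclei had 1.42 and 2.26 UFIs per 10000 in No_index_frozen, 3.69 and 4.13 in Index_frozen, 2.96 and 2.68 in No_index_fresh and 2.20 in Index_fresh (2.76 ± 0.925, n = 7). Interneuron-like nuclei had 2.12 and 1.79, 1.93 and 2.09, 2.77 and 1.89, and 1.33 (1.99 ± 0.431, n = 7). The ranges of astrocyte-like and interneuron-like nuclei overlapped, while both lay above every excitatory-like value of Egfr (0.0162 to 0.0466). The carriers differed in share. Egfr was seen in 78.9% of astrocyte-like nuclei and in 24.2% of interneuron-like nuclei (57.3% and 21.0% after thinning to 5000 UFIs), against 4.18% of excitatory-like nuclei (1.42% after thinning), at median depths of 12382, 12356 and 13327 UFIs.

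Erbb2 and Erbb3 were close to 0 in neurons. In all 4185 excitatory-like nuclei there were 34 UFIs of Erbb2 and 29 of Erbb3. In the 952 interneuron-like nuclei there were 3 UFIs of Erbb2, from 2 libraries, and 8 of Erbb3, from 4 libraries. Erbb3 reached 0.411 ± 0.277 UFIs per 10000 in oligodendrocyte-like nuclei (0.136 to 0.882, n = 7), and Erbb2 reached 0.121 ± 0.123 in endothelial-like nuclei (0 to 0.330, n = 6) among brain classes. Per 100 kb of gene span, the level in interneuron-like nuclei was 6.36 UFIs per 10000 for Erbb4, 1.23 for Egfr, 0.0312 for Erbb3 and 0.00621 for Erbb2, so Erbb4 led this class after length was taken into account. On the same scale Nrg3 led in excitatory-like (5.50), Nrg1 in striatal projection-like (6.26) and Nrg2 in Purkinje-like nuclei (5.42).

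The comparison of interneuron-like with excitatory-like nuclei asked which ligands and receptors separate the main neuron classes. It was tested with edgeR's quasi-likelihood test on UFIs summed per library and class, with library as a block and Benjamini-Hochberg adjustment over 11520 genes. Of the 8 genes, 4 passed an adjusted p of 0.05, where 40.0% of all genes tested passed. The clusters were formed on many of those other genes but not on these 8. Erbb4 was 63.8-fold higher in interneuron-like nuclei (log2 difference 5.996 ± 0.343 SE, edgeR adjusted p = 2.1e-22, higher in 7 of 7 libraries) and Egfr was 55.1-fold higher (5.78 ± 0.338, adjusted p = 5.65e-22, 7 of 7). Nrg1 was 5.26-fold lower (-2.39 ± 0.229, edgeR adjusted p = 1.93e-13, lower in 7 of 7). Nrg4 was 1.76-fold higher (0.81 ± 0.230, edgeR adjusted p = 0.00314, higher in 6 of 7), and this call was lost in DESeq2 (adjusted p = 0.0520). Nrg3 was lower in 7 of 7 libraries by 0.35 ± 0.152 on the log2 scale but did not pass (edgeR adjusted p = 0.0603). Nrg2 (0.22 ± 0.170), Erbb2 and Erbb3 did not pass either.

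Striatal projection-like nuclei were set against interneuron-like nuclei because both are GABA neurons. Of the 8 genes 7 passed, where 46.5% of all genes tested passed. Nrg1 was 9.15-fold higher in striatal projection-like nuclei (log2 difference 3.19 ± 0.237, edgeR adjusted p = 6.99e-18, 7 of 7 libraries) and Nrg2 1.83-fold higher (0.87 ± 0.172, adjusted p = 1.97e-05, 7 of 7). Erbb4 was 7.66-fold lower (-2.94 ± 0.297, edgeR adjusted p = 7.42e-13), Egfr 13.6-fold lower (-3.77 ± 0.326, adjusted p = 2.93e-15) and Nrg3 2.34-fold lower (-1.23 ± 0.154, adjusted p = 7.64e-10), each in 7 of 7 libraries. Nrg4 passed narrowly (-0.69 ± 0.267, edgeR adjusted p = 0.0301) and no longer passed without any 1 of 5 libraries (No_index_frozen_1, Index_frozen_2, No_index_fresh_1, No_index_fresh_2 or Index_fresh_1; adjusted p 0.0536 to 0.167). The call for Erbb2 (edgeR adjusted p = 0.00481) rested on 21 UFIs against 3, a ratio of UFI rates of 5.44 with an exact 95% interval of 1.62 to 28.5 that covers counting error only. Erbb3 did not pass.

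Finer clusters showed that neither receptor was spread evenly over interneurons. At a resolution of 1.2, clustering of all nuclei gave 5 interneuron-like clusters. They are not an exact split of the interneuron-like class above, and include nuclei from outside it. These clusters are described without a test since they were picked after their values were seen. The cluster led by Eya4 and Nxph2, which had Lhx6 among its leading genes (360 nuclei), had an Erbb4 level of 102 ± 20.2 UFIs per 10000 (69.9 to 127, n = 7). The cluster led by Sst and Crhbp (272 nuclei) had 16.8 ± 6.17 (10.4 to 27.7, n = 6), below every value of the Lhx6 cluster. Lhx6 was also among the leading genes of the Sst cluster, so the name Lhx6 cluster is only a label and Lhx6 does not separate these clusters. Somatostatin, encoded by Sst, marks a large class of dendrite-targeting interneurons. The cluster led by Vip and Htr3a (181 nuclei) had 72.8 ± 9.93 of Erbb4 and the cluster led by Ndnf and Npy (121 nuclei), genes of neurogliaform cells, 75.6 ± 23.1 (n = 6 each).

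Egfr was concentrated in other clusters than the highest Erbb4 level. It was 7.95 ± 2.08 UFIs per 10000 in the Ndnf and Npy cluster (4.49 to 10.1, n = 6) and 3.06 ± 1.03 in the Vip cluster (1.83 to 4.07, n = 6). In the Lhx6 cluster it was 0.546 ± 0.302 (n = 7) and in the Sst cluster 0.0816 ± 0.108 (n = 6). The Ndnf and Npy cluster and the Vip cluster therefore carried both receptors, and the Lhx6 cluster mostly Erbb4. The Sst cluster had the lowest mean of both among these 4, with its Erbb4 level still far above its Egfr level. Among these 4 clusters Nrg3 ran from 39.4 ± 3.61 in the Ndnf and Npy cluster to 59.9 ± 11.1 in the Vip cluster, and Nrg1 from 7.40 ± 3.37 in the Sst cluster to 14.1 ± 4.01 in the Ndnf and Npy cluster. The smallest cluster, led by Gm45260 and Fign (51 nuclei), differed from them in Nrg1, with a pooled level of 38.2 UFIs per 10000. Its pooled levels were 29.7 for Erbb4 and 32.3 for Nrg3, and it had no UFI of Egfr.

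The striatal projection-like class held a cluster led by Drd1 (838 nuclei) and a cluster led by Adora2a and Drd2 (530 nuclei), the direct and indirect pathway neurons by these receptors. Nrg1 was 67.1 ± 6.94 UFIs per 10000 in the first and 69.2 ± 8.80 in the other (n = 7 each), closer than the spread between libraries. Nrg3 was 24.5 ± 1.03 in the Drd1 cluster (23.2 to 25.9) and 10.7 ± 2.39 in the Drd2 cluster (8.44 to 14.4), with no overlap between libraries. Erbb4 was 11.2 ± 2.86 in the Drd1 cluster (7.91 to 14.8). In the Drd2 cluster it was 3.08 ± 4.13, with No_index_frozen_2 at 12.4 and the other 6 libraries at or below 2.02; the 31 nuclei of that library also had the highest Egfr level of the cluster, 0.920. These clusters too were picked after their values were seen.

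**Figure D2:**
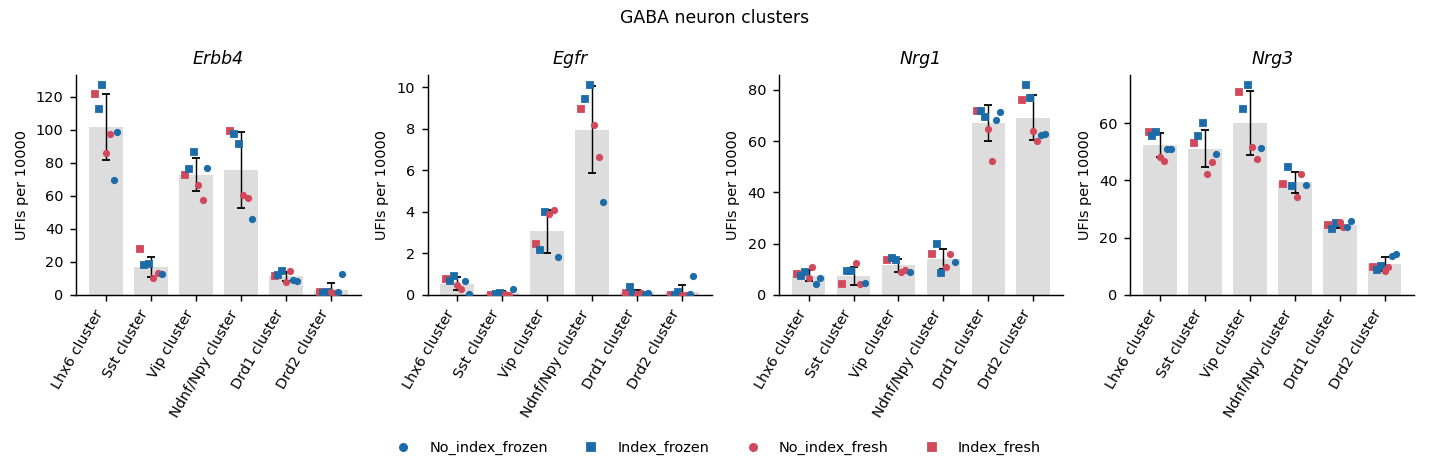
Erbb4, Egfr, Nrg1 and Nrg3 (y axes, UFIs per 10000 UFIs, starting at 0) in 4 of the 5 interneuron-like and 2 striatal projection-like clusters (x axis). Bars are means over libraries, whiskers SD and points libraries with at least 10 nuclei; Erbb4 is at 69.9 to 127 in the Lhx6 cluster and 10.4 to 27.7 in the Sst cluster, and Egfr is highest in the Ndnf and Npy cluster.

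Glial nuclei carried neuron transcripts, and these moved with the ligands. Over the 8 neuron markers (Snap25, Syt1, Rbfox3 and others, all 8 detected), oligodendrocyte-like nuclei had 106 UFIs per 10000 in sum (60.6 to 126 over libraries) and astrocyte-like nuclei 92.7 (75.6 to 112), against 164 in excitatory-like nuclei. Of 809 glial and endothelial-like nuclei, 323 had less than 40 UFIs of these markers per 10000, a limit chosen after the values were seen, and 45 lay within 10 of it. Tests of the glial classes are therefore given for all nuclei of the class and for those low in neuron markers. In the latter the neuron marker sum was 8.42 in oligodendrocyte-like (2.96 to 21.7), 11.9 in astrocyte-like (5.62 to 19.6) and 19.3 in OPC-like nuclei (15.2 to 25.4), and all 8 markers were still detected. The part that neuron transcripts play in the values over all nuclei of a class was not tested. Excitatory-like nuclei were not selected in this way. Removing neuron transcripts by itself lowers genes that run with them, and raises the share of the rest. Nrg3 ran with the presynaptic gene Syp over clusters (r = 0.970). These clusters include the kidney-rich nuclei, whose pooled Nrg3 level was 0.267 UFIs per 10000, against 10.1 in the next lowest cluster used. The r without them is not given here. Tests against excitatory-like nuclei after the selection therefore cannot tell how far the ligands are lower in glia.

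In oligodendrocytes, the myelin-forming cells, both neuregulin-binding receptors rose over excitatory-like nuclei. Erbb3 was 0.136 and 0.203 UFIs per 10000 in No_index_frozen, 0.882 and 0.437 in Index_frozen, 0.324 and 0.216 in No_index_fresh and 0.681 in Index_fresh. In nuclei low in neuron markers Erbb3 was 0.344 and 0.779, 2.01 and 0.769, 1.02 and 0.758, and 1.69 (1.05 ± 0.586, n = 7), so it was higher in every library after this selection. Erbb4 was 19.1 and 15.0, 46.6 and 42.0, 18.4 and 20.8, and 44.3 in the selected nuclei (29.5 ± 14.1, n = 7). The 3 Index libraries lay above the 4 No_index libraries here. The ligands went down with the selection. Nrg1 was 5.33 ± 6.79 (1.28 to 20.1, the highest in No_index_frozen_1) and Nrg3 4.97 ± 3.97 (1.54 to 13.3), against 19.9 ± 8.38 and 25.2 ± 4.22 over all oligodendrocyte-like nuclei.

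Against excitatory-like nuclei, 5 of the 8 genes passed in oligodendrocyte-like nuclei, where 42.5% of all genes tested passed. In nuclei low in neuron markers, a selection made on the glial side only, 7 of 8 passed, where 49.8% of genes passed. Erbb3 was 78.4-fold higher over all nuclei (log2 difference 6.29 ± 0.334, edgeR adjusted p = 2.97e-22) and 184-fold higher in those low in neuron markers (7.52 ± 0.299, edgeR adjusted p = 5.46e-29). Erbb4 was 15.6-fold higher (3.96 ± 0.313, edgeR adjusted p = 1.26e-16) and 22.6-fold higher (4.50 ± 0.332, adjusted p = 2e-18). Both held in 7 of 7 libraries. Nrg1 was lower by 1.21 ± 0.222 and, after the selection, by 3.56 ± 0.375 on the log2 scale, and Nrg3 by 1.42 ± 0.155 and 4.21 ± 0.373, each lower in 7 of 7 libraries and past the edgeR test. Egfr was higher (2.96 ± 0.419, edgeR adjusted p = 2.42e-08, 6 of 7 libraries), but not at the finer clustering resolution (1.01, adjusted p = 0.214), and its level ran from 0.0407 to 0.617 over libraries. Nrg2 (-1.94 ± 0.183) and Erbb2 (3.05 ± 0.754, from 7 UFIs) passed only among nuclei low in neuron markers. Nrg4 passed in neither.

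Measured per length, Erbb3 was above Erbb4 in oligodendrocyte-like nuclei low in neuron markers, at 4.76 against 2.74 UFIs per 10000 per 100 kb. Before that selection the values were 1.86 and 1.70. Erbb3 was found in 59.5% of the selected nuclei (39.9% after thinning to 5000 UFIs) and in 0.669% of excitatory-like nuclei (0.179% after thinning), at median depths of 10459 and 13327 UFIs. Erbb4 was found in 96.7% of the selected nuclei (94.5% after thinning).

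OPC-like nuclei had less Erbb3 than oligodendrocyte-like nuclei, and a difference in Erbb4 was not detected. Stages within these classes were not separated. Bcas1, a gene of the oligodendrocyte marker list, was among the leading genes of the OPC-like cluster. At a resolution of 1.2 an oligodendrocyte-like cluster led by Bcas1 and Enpp6 (97 nuclei) had pooled levels of 0.623 for Erbb3 and 27.2 for Erbb4. The oligodendrocyte-like cluster led by Prr5l and Mal (219 nuclei) had 0.318 and 16.8. These clusters were not split by neuron markers. The Prr5l and Mal cluster also had more Nrg1 (24.3 against 10.6) and Nrg3 (34.0 against 10.3), and the part of neuron transcripts in these differences was not tested. Erbb4 in OPC-like nuclei low in neuron markers was 26.1 and 25.3 UFIs per 10000 in Index_frozen, 19.9 and 22.9 in No_index_fresh and 30.1 in Index_fresh (24.9 ± 3.77, n = 5). The interneuron marker list summed to 40.3 UFIs per 10000 in these nuclei (34.8 to 50.9 over libraries), against 4.14 in oligodendrocyte-like nuclei low in neuron markers (1.86 to 10.0). Of its 14 genes Nxph1 (23.9) and Adarb2 (15.4) made up most of the sum, Gad1 was at 0.603 and Gad2 at 0.0782, and Lhx6, Sst and Vip had no UFI; the part of this list in the Erbb4 values was not tested. Erbb3 was 0.201 and 0.360, 0.257 and 0.367, and 0.184 (0.274 ± 0.0861, n = 5), below the oligodendrocyte value of the same library each time. Over all nuclei Erbb3 alone of the 8 genes passed against oligodendrocyte-like nuclei (-1.12 ± 0.349, edgeR adjusted p = 0.0156, lower in 6 of 7 libraries), where 19.1% of genes passed. This call was lost without Index_frozen_1 (adjusted p = 0.198) and in DESeq2 (adjusted p = 0.0627). In nuclei low in neuron markers 4 of the 8 passed, where 21.5% of genes did. Erbb3 was 4.19-fold lower (-2.07 ± 0.357, edgeR adjusted p = 6.4e-06, 5 of 5 libraries). Of the ligands, 3 were higher in OPC-like nuclei, Nrg2 by 1.50 ± 0.218 (edgeR adjusted p = 1e-07, 5 of 5), Nrg3 by 1.61 ± 0.383 (5 of 5) and Nrg1 by 1.34 ± 0.401 (4 of 5), while the OPC-like nuclei also had the higher neuron marker sum. For Erbb4 the difference was -0.24 ± 0.322 (edgeR adjusted p = 0.696).

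Astrocytes, the support cells that the EGF receptor is known from in glia, stood out by Egfr. In astrocyte-like nuclei low in neuron markers it was 6.12 and 5.62 UFIs per 10000 in Index_frozen, 8.72 and 3.73 in No_index_fresh and 2.36 in Index_fresh (5.31 ± 2.43, n = 5), and 88.2% of these nuclei had at least 1 UFI. Per 100 kb this was 3.28, against 0.502 for Erbb4 in the same nuclei. Against excitatory-like nuclei 5 of the 8 genes passed, where 36.2% of genes did, and 6 of 8 in nuclei low in neuron markers, where 41.2% did. Egfr was 72.9-fold higher (6.19 ± 0.353, edgeR adjusted p = 9.78e-23, 7 of 7 libraries) and 123-fold higher after the selection (6.94 ± 0.368, adjusted p = 1.4e-24, 5 of 5).

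For Erbb4 the selection worked the other way in astrocytes than in oligodendrocytes. Its level was 14.2 ± 10.2 over all astrocyte-like nuclei, with Index_fresh_1 at 36.6 and the other libraries at 6.85 to 14.2, and 5.41 ± 4.54 in nuclei low in neuron markers (0.735 to 11.1, n = 5). The difference from excitatory-like nuclei fell from 3.55 ± 0.310 to 1.92 ± 0.349 on the log2 scale, past the edgeR test both times (adjusted p = 6.19e-15 and 5.06e-06). The interneuron marker list moved with these values, at 17.5 UFIs per 10000 in all astrocyte-like nuclei (10.2 to 31.2 over libraries), 2.52 in those low in neuron markers (0.147 to 14.3) and 4.26 in excitatory-like nuclei; its part in the Erbb4 values was not tested. Nrg1 and Nrg3 were lower in astrocyte-like nuclei by 0.94 ± 0.221 and 1.16 ± 0.155 over all nuclei, and by 4.98 ± 0.478 and 4.32 ± 0.441 in those low in neuron markers. Erbb2 passed at 2.96 ± 0.579 (edgeR adjusted p = 2.75e-05) from 14 UFIs over 190 nuclei, and at 2.94 ± 1.12 after the selection (adjusted p = 0.0287) from 5 UFIs. Endothelial-like nuclei low in neuron markers (49 nuclei) had an Egfr level of 2.33 ± 1.82 and an Erbb2 level of 0.219 ± 0.192 (n = 4), and no UFI of Erbb3 or Nrg4.

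**Figure D3:**
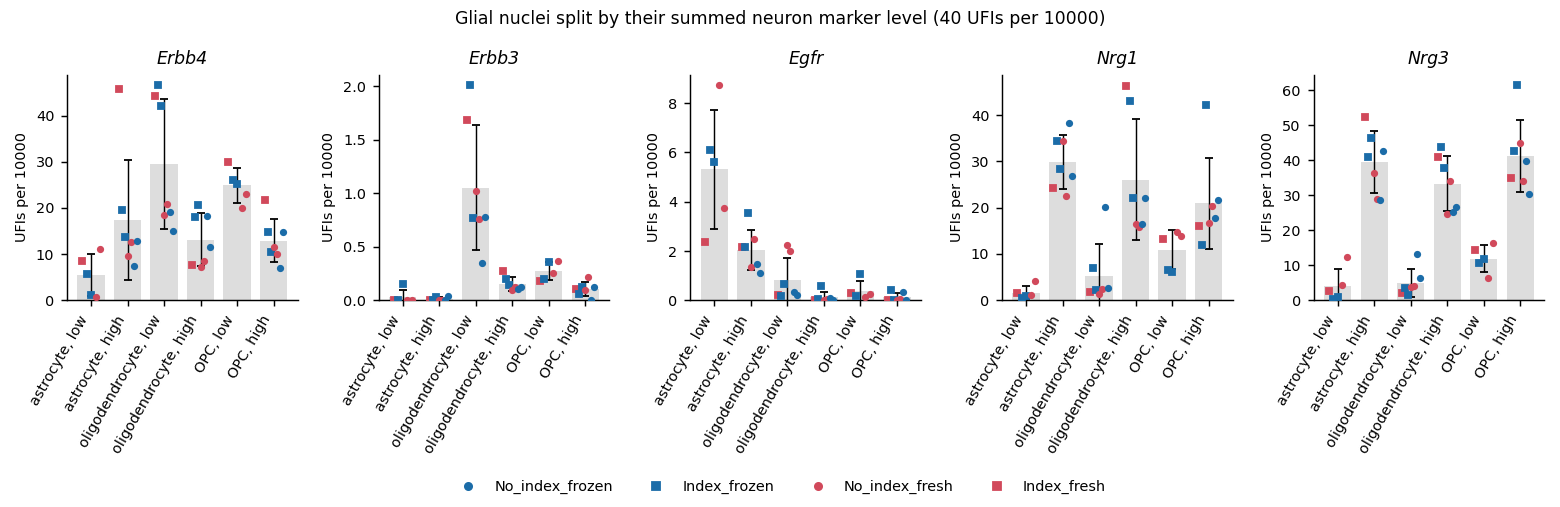
Erbb4, Erbb3, Egfr, Nrg1 and Nrg3 (y axes, UFIs per 10000 UFIs, starting at 0) in astrocyte-like, oligodendrocyte-like and OPC-like nuclei below (low) and above (high) 40 UFIs of the 8 neuron markers per 10000. Bars are means over libraries, whiskers SD and points libraries. The ligands Nrg1 and Nrg3 are lower on the low side, while Erbb3 is higher there in oligodendrocyte-like nuclei and Egfr in astrocyte-like nuclei.

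The kidney-rich nuclei, 268 in Index_frozen_1 and 213 in Index_frozen_2 and none in the other 5 libraries, held all 4 receptors and little neuregulin. All 10 proximal tubule markers (86.3 UFIs per 10000 in sum, 81.2 and 92.0 by library) and all 11 distal tubule markers (37.3 in sum) were detected in them, and the 8 neuron markers summed to 1.68. The source of these nuclei was not tested. Egfr was 5.30 and 5.19 UFIs per 10000 in the 2 libraries, Erbb2 0.823 and 0.888, Erbb3 0.709 and 0.629, and Erbb4 15.1 and 16.3. Egfr and Erbb2 were each above every library of every named brain class taken whole. Per 100 kb the levels were 3.39 for Erbb2, 3.24 for Egfr and 3.03 for Erbb3, with Erbb4 lower at 1.46. Nrg3 was 0.219 and 0.310, Nrg2 0.0999 and 0.0382, and Nrg1 2.34 and 2.27.

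Against excitatory-like nuclei 7 of the 8 genes passed, where 69.4% of all genes did. Kidney-rich nuclei entered this test with 2 libraries only, and the spread was estimated over all classes in the fit. Erbb2 was 138-fold higher (log2 difference 7.11 ± 0.417, edgeR adjusted p = 1.17e-22), Egfr 105-fold higher (6.72 ± 0.414), Erbb3 73.2-fold higher (6.19 ± 0.404) and Erbb4 9.09-fold higher (3.18 ± 0.393). Nrg3 was 317-fold lower (-8.31 ± 0.389, edgeR adjusted p = 2.3e-27), Nrg2 52.5-fold lower and Nrg1 26.7-fold lower. Nrg4 did not pass (0.20 ± 0.402). Both libraries moved the same way for each of the 8 genes.

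Among 11 clusters formed within the kidney-rich nuclei, Erbb4 varied more than the other receptors. Its pooled level was 52.4 UFIs per 10000 in the cluster led by Cnbd1 and Gp2 (39 nuclei; 50.2 and 55.3 in the 2 libraries), 36.3 in the cluster led by Tmem207 (31 nuclei) and 18.5 in the cluster led by Slc12a3, the sodium chloride cotransporter of the distal convoluted tubule (89 nuclei). It was lowest, at 5.75, in the cluster led by Gm38048 and Ccl28 (69 nuclei). Egf, the ligand of Egfr and a product of the distal nephron, had its highest levels in the same 3 clusters, at 33.9, 28.7 and 19.3, and 0.591 to 15.0 in the other 8. Egfr ran from 1.98 to 7.50. All 11 clusters carried proximal tubule markers, at 39.1 to 133 UFIs per 10000. Distal tubule markers summed to 69.8, 61.6 and 86.8 in the clusters led by Cnbd1, Tmem207 and Slc12a3, and to 6.16 to 51.5 in the other 8. The values are a description from 2 libraries.

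**Figure D4:**
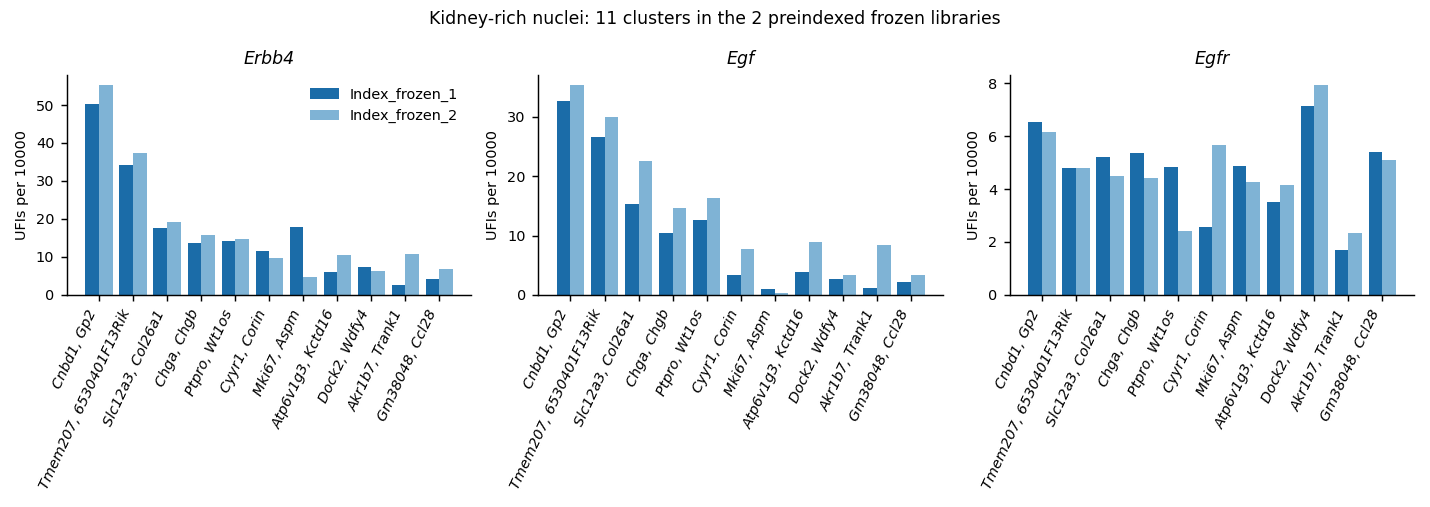
Levels of Erbb4, Egf and Egfr (y axes, UFIs per 10000 UFIs, starting at 0) in the 11 clusters of kidney-rich nuclei (x axis, each named by its leading genes), with 1 bar for each of the 2 Index_frozen libraries. Erbb4 and Egf are both highest in the clusters led by Cnbd1, Tmem207 and Slc12a3.

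Storage of the brain, frozen or fresh, was tested with edgeR over the 7 libraries with the primer as a further term. None of the 8 genes passed in the sum of all nuclei, where 0.207% of 19299 genes did. At an unadjusted p of 0.05, 2 of the 8 passed, Nrg4 (0.29 ± 0.108) and Erbb2 (1.78 ± 0.585), and DESeq2 called 0. The share of all genes at an unadjusted p of 0.05 is not given here, so counts at that level have no background beside them. The kidney-rich nuclei lie in 2 frozen libraries. The liver-rich cluster was an unnamed one of 89 nuclei led by Cyp2b9 and Cps1, with Alb among its leading genes. All 8 microglia markers were also 2-fold above their mean level in the remaining clusters there, so leaving it out removes these nuclei too. With the kidney-rich and liver-rich clusters left out, the Erbb2 difference was 0.012 (unadjusted p = 0.969), and Nrg1 (0.11), Nrg2 (0.12) and Nrg4 (0.34) were under an unadjusted p of 0.05, again with 0 of the 8 past the test (the lowest edgeR adjusted p was 0.256). Within excitatory-like nuclei (0.157% of genes called) and interneuron-like nuclei (0.164% called) edgeR also called 0 of the 6 genes tested, with 2 at an unadjusted p of 0.05 in each (Nrg3 and Nrg4, and Nrg1 and Nrg3), and DESeq2 called 0. Erbb2 and Erbb3 were below the filter on low counts within these classes. Erbb4 in interneuron-like nuclei differed by 0.03 ± 0.0980 between frozen and fresh brain, and Nrg1 in excitatory-like nuclei by 0.11 ± 0.0598.

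More of the 8 genes passed for the primer. In the sum of all nuclei 3 of the 8 passed, where 15.8% of genes did. Nrg1 was higher in Index libraries by 0.38 ± 0.0644 (edgeR adjusted p = 0.00976), Erbb4 by 0.56 ± 0.111 (adjusted p = 0.0166) and Erbb2 by 2.02 ± 0.534 (adjusted p = 0.0423). Erbb2 in all nuclei was 0.0711 and 0.0726 UFIs per 10000 in Index_frozen and 0.00444 to 0.00848 in the other 5 libraries, Index_fresh_1 among them. The Index_frozen libraries are those with the kidney-rich nuclei, and with the kidney-rich and liver-rich clusters left out the difference was 0.15 (edgeR adjusted p = 0.783). For Nrg1 and Erbb4 the calls held without those clusters (edgeR adjusted p = 0.000177 and 0.00281), and Nrg3 passed as well (adjusted p = 0.000696). Other classes also differed with the primer. The 93 cerebellar granule-like and 34 Purkinje-like nuclei came from No_index libraries only. At the finer clustering resolution both classes held more nuclei, whose libraries are not given here. The unnamed cluster led by Baiap3 made up 12.65 to 15.35% of Index and 18.85 to 22.14% of No_index libraries. The part of such shares in the differences over all nuclei was not tested. Leaving out Index_frozen_1 or Index_frozen_2 ended the call for Erbb4 (adjusted p = 0.0567 and 0.0682) and left Nrg1 as the only call.

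Within excitatory-like nuclei 2 of the 6 genes tested passed for the primer, where 9.90% of genes did. Nrg1 was higher in Index libraries by 0.45 ± 0.0594 (edgeR adjusted p = 0.000885) and Nrg3 by 0.37 ± 0.0509 (adjusted p = 0.00128). Nrg1 was 51.3, 46.4 and 43.1 UFIs per 10000 in the 3 Index libraries and 35.7 to 38.1 in the 4 No_index libraries, and Nrg3 was 69.2, 68.5 and 63.9 against 54.3 to 57.7, so neither overlapped. Within interneuron-like nuclei Erbb4 passed (0.45 ± 0.0975, edgeR adjusted p = 0.0351, 1.10% of genes called), with 74.5, 81.9 and 79.8 against 54.4 to 67.4. This call was lost without any 1 of 6 libraries (adjusted p 0.0535 to 0.283, all but No_index_frozen_2).

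**Figure D5:**
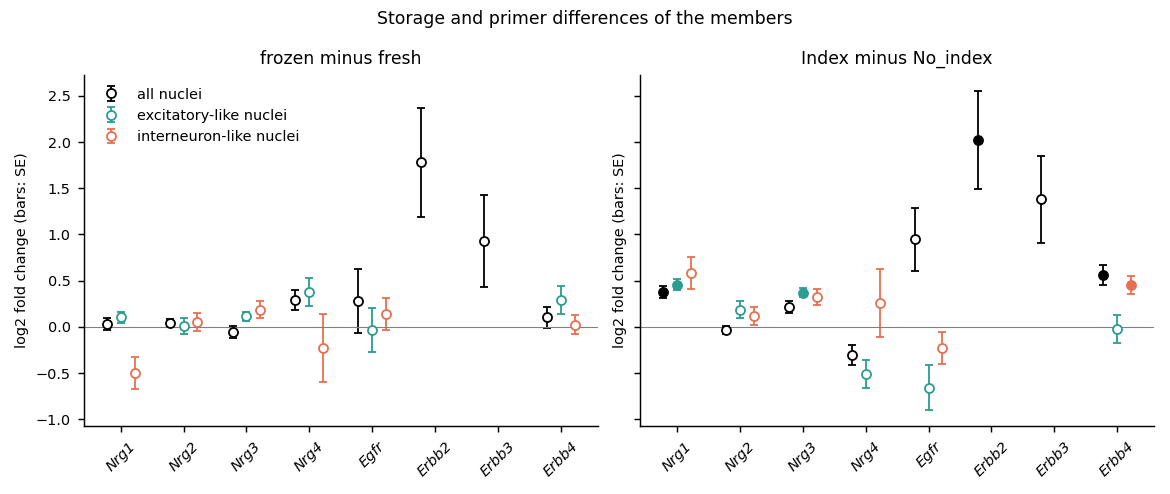
Log2 differences (y axis) of the 8 genes (x axis) between frozen and fresh brain (left) and between Index and No_index primers (right), fitted by edgeR in all nuclei, excitatory-like nuclei and interneuron-like nuclei. Points are estimates, bars SE, and filled points passed an adjusted p of 0.05; no storage difference passed, and 6 primer differences did.

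Of the 32 further genes of the ErbB pathway (other ligands, sheddases, adaptors, brakes and scaffolds), 29 were tested in the class comparisons. Areg, Ereg and Epgn, ligands of the EGF receptor, were below the filter. Between interneuron-like and excitatory-like nuclei 8 were higher and 5 lower (median log2 difference 0.07, 40.0% of all genes called). The largest increases were Erbin, a scaffold named for its binding to ErbB2 (2.10 ± 0.148), Hbegf, a ligand of Egfr and ErbB4 (1.90 ± 0.414), and the adaptor Shc1 (1.11 ± 0.258). Stat5b, a transcription factor downstream of the receptors, Sos1, Shc3, Ptpn11 and Pik3ca were higher by 0.25 to 1.07. Tgfa, another ligand of Egfr, was lower by 1.86 ± 0.242, the adaptor Grb7 by 1.75, the PI3 kinase subunit Pik3r1 by 0.90, Dlg4, the postsynaptic scaffold that binds ErbB4, by 0.55, and Cbl, which ubiquitinates the receptors, by 0.33.

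In oligodendrocyte-like nuclei 14 of the 29 were higher and 2 lower than in excitatory-like nuclei (median 0.29, 42.5% of genes called). In nuclei low in neuron markers it was 10 higher and 3 lower of 28 (median 0.28, 49.8% of genes called). The docking protein Gab1 was the most changed in both, by 5.59 ± 0.260 and 6.62 ± 0.239, followed by Erbin at 3.57 and 4.34 and Lrig3 at 2.30 and 3.10. Tgfa was higher at 2.15 and 2.57, and the protease Bace1, which cuts Nrg1, at 0.92 and 1.70. Lrig1, a brake on the receptors, was higher at 0.87 and 1.28, Ptpn11 at 0.81 and 1.08, Pik3r1 at 0.69 and 1.37, Shc1 at 1.17 and 2.01 and Grb2 at 0.44 and 0.48. Stat5b (0.89), Adam19 (0.40), Pik3ca (0.28) and Sos1 (0.24) passed over all nuclei only. Dlg4 and Shc3, an adaptor of neurons, were lower in both, and Cblb was lower by 0.42 in nuclei low in neuron markers. In kidney-rich nuclei 16 were higher and 4 lower (median 0.90, 69.4% of genes called), with Egf at 7.11 ± 0.200 and the feedback inhibitor Errfi1 at 4.99.

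For storage edgeR called 0 of the 29 pathway genes in all nuclei, where 0.207% of all genes passed (6 at an unadjusted p of 0.05, and 1 by DESeq2). In excitatory-like nuclei it called 0 of 29, where 0.157% passed (1 at an unadjusted p of 0.05, 0 by DESeq2). In interneuron-like nuclei it called 0 of 26, where 0.164% passed (3 at an unadjusted p of 0.05, and 0 by DESeq2). For the primer 5 were higher and 1 lower of 29 in all nuclei, where 15.8% of genes passed. Errfi1 was higher by 1.37 ± 0.350, Tgfa by 0.44, Shc3 by 0.34, the sheddase Adam19 by 0.23 and Pik3ca by 0.14, and Ptpn11 was lower by 0.18. With the kidney-rich and liver-rich clusters left out, Errfi1 differed by -0.0094 (edgeR adjusted p = 0.967), Pik3ca (adjusted p = 0.398) and Ptpn11 (adjusted p = 0.140) did not pass either, and Tgfa (0.55), Shc3 (0.46) and Adam19 (0.33) did, where 19.3% of genes passed. Adam19 (0.52 ± 0.0846) and Shc3 (0.39 ± 0.0792) were higher within excitatory-like nuclei, where 9.90% of genes passed. Within interneuron-like nuclei edgeR called 0 of 26, where 1.10% of genes passed (4 at an unadjusted p of 0.05, 0 by DESeq2).

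The genes whose levels ran most like 7 of the members over the 24 clusters of at least 50 nuclei, by Pearson's r of log2 levels, were Rab15 (r = 0.877), Arhgap33 and Rasgef1c for Nrg1, Ndrg4 (0.930), Dock3 and Fgf14 for Nrg2, and Gabbr2 (0.972), Syp and Amph for Nrg3. Among the receptors they were Rxra (0.879), Arhgef12 and Sall1 for Egfr, Slc16a4 (0.940), Slc22a6 and Bdh2 for Erbb2, Sgk2 (0.918), Rad51b and Mdm2 for Erbb3, and Dusp10 (0.838), Mdm4 and Kat2b for Erbb4. Clusters share libraries and differ in depth, and the kidney-rich nuclei, low in neuron transcripts, are 1 of the 24. These values are therefore a description. Syp and Amph are presynaptic genes and Slc22a6 is a transporter of the proximal tubule. Erbb2 was highest in the kidney-rich nuclei, which carried both proximal and distal tubule markers. Among the 11 clusters within them, its pooled level was highest in those led by Mki67 (1.28 UFIs per 10000) and Cnbd1 (1.26). It was 0.858 and 0.760 in those with the highest proximal marker sums, led by Dock2 and Gm38048.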

How the data were processed

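The authors trimmed poly-A tails with Cutadapt, kept cell barcodes above a manual read cutoff from the UMI-tools whitelist, aligned reads with STAR, assigned uniquely mapped reads to whole genes with featureCounts and counted UFIs per gene and nucleus with UMI-tools. The submitters' processing notes list GRCh38, GRCm38 and mm10 as builds, and no tool version is given. The deposited values are whole-number counts, with 1 table per library, and no row lacked a gene name. Precision is limited by 8605214 to 42439731 UFIs per library.

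Nuclei of the 7 brain tables were joined by gene symbol and clustered with Scanpy 1.11.5 (2000 variable genes, 40 principal components, 10 neighbours, Leiden resolution 0.4, and 1.2 as an alternative), without the 8 genes and the 32 pathway genes. A cluster was named where at least 3 and at least 50% of a marker list were 2-fold above their mean level in the remaining clusters and 1 or more stood among its 10 leading genes. Where no list met it, a cluster was called excitatory-like if Slc17a7 and at least 3 genes of that list lay above the mean over clusters, Gad1 and Gad2 lay below it, and no other list had more genes among the 10 leading genes. All 8 excitatory-like clusters were named this way. The naming rule was set with an initial clustering in view, and names rebuilt here may differ from the study's. The 8 genes and the gene and marker lists were chosen with earlier results of these data known. All 8 genes were named in every comparison, and pathway genes where they passed. Doublets were not removed; leaving out the deepest 5% of nuclei (559) was an alternative.

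UFIs were summed per library and class with at least 10 nuclei (5 for nuclei low in neuron markers) and tested with edgeR 4.0.16 (TMM, filterByExpr, quasi-likelihood F test, Benjamini-Hochberg over all genes tested, adjusted p of 0.05), with library as a block for classes, and with storage and primer as terms for libraries. DESeq2 1.42.0, other scalings and filters, other clusterings and left-out libraries were alternatives. Share intervals are exact binomial at 95% and cover counting error only. On simulated data for interneuron-like against excitatory-like nuclei (9361 genes), edgeR recovered 93.0% of genes changed by 1 and 100% of genes changed by 2 on the log2 scale. For storage over all nuclei (18573 genes) it recovered 50.5% and 80.0%. In each simulation 200 genes were set to change, and 11 unchanged genes were called. All other genes had the same share in every class and library, unlike in the data. The rates therefore need not hold for single genes with few UFIs, such as Erbb2 and Erbb3 in neurons.

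Coordinates come from RefSeq GRCm38.p6. The other 5 samples of the series, mixes of cell lines, were not analysed here. The genes most like Nrg4 are not reported here.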

Additional observations from a re-analysis of the deposited data

Results flagged for a closer look

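In 3 of 77 sets of libraries tested, 1 library lay far from the others by Dixon's criterion, which chance alone meets in about 1 of 20 sets. Egfr in striatal projection-like nuclei was 0.372 UFIs per 10000 in No_index_frozen_2 and 0.0358 to 0.0662 in the other No_index libraries. Egfr in oligodendrocyte-like nuclei was 0.617 in Index_frozen_2 and 0.0407 to 0.114 in the other frozen libraries. Nrg4 in astrocyte-like nuclei was 0.185 in No_index_frozen_1, from 13 nuclei, and 0.0222 to 0.0378 in the other frozen libraries.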

How the results depend on the processing

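Over the 12 comparisons, 608 results were recomputed under alternatives, for genes called in the main fit and a few shares of nuclei. Genes not called in the main fit were left out, so a gained call could not enter this count. Of the 608 results, 575 kept their direction and their side of the threshold, and 29 kept their direction but no longer passed (19 of them on leaving out a library). A further 4 shares of nuclei moved with the thinning depth, and 0 results reversed. The count of the 8 genes called between OPC-like and oligodendrocyte-like nuclei, 1 in edgeR, was 0 with DESeq2, 2 with at least 30 nuclei per library and class, and 4 in nuclei low in neuron markers, an alternative chosen after seeing the data; leaving out each library in turn gave 0 to 1, and 0 only without Index_frozen_1. For the primer over all nuclei, 3 in edgeR, it was 5 with DESeq2, 6 with no filter on low counts and 1 to 5 with a library left out (1 without Index_frozen_1 or Index_frozen_2, 5 without Index_fresh_1). For the primer in interneuron-like nuclei, 1 in edgeR, it was 3 with DESeq2, 3 with no filter and 0 to 1 with a library left out. For storage it was 2 with no filter over all nuclei, and in interneuron-like nuclei 1 with no filter and 0 to 1 with a library left out (Nrg1, without Index_fresh_1). The share of all genes that passed is not given here for most of these alternatives. The counts alone therefore cannot tell a change in the 8 genes from a setting that calls more or fewer genes throughout. The share of interneuron-like nuclei with Erbb4 was 91.8% at 5000 UFIs and 89.6% at 3000 UFIs, where fewer UFIs are kept by construction. For the other changes the cause was not tested. Counting the unnamed cluster led by Igfn1 as excitatory-like, also chosen after seeing the data, changed none of the counts of the 6 class comparisons beyond 1.5 times; it was not run for storage or primer.

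The replicate numbers did not pair the libraries: deviations of same-numbered libraries correlated at -0.0429, -0.0127 and 0.0421 between groups. With the replicate number as a block, Erbb2 no longer passed for the primer over all nuclei (log2 difference 2.21, edgeR adjusted p = 0.0635), and no other call among the 8 genes changed. Values of Erbb2 and Erbb3 in neurons rest on few counts, with 34 and 29 UFIs over the 4185 excitatory-like nuclei. The part of depth in these low counts was not tested.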

Other observations

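The unnamed clusters are described by levels pooled over libraries. The largest, led by Baiap3 and Glra1 (1805 nuclei), had pooled levels of 12.1 UFIs per 10000 for Erbb4, 27.8 for Nrg1 and 48.0 for Nrg3. The cluster led by Chat and Slc5a7, genes of cholinergic neurons (58 nuclei), had 10.5 for Erbb4, 39.4 for Nrg1 and 58.8 for Nrg3, and its Nrg4 level, 0.343, was above the highest class mean, 0.135. The cluster led by Igfn1 and Nectin3 (825 nuclei) held excitatory markers but stayed unnamed, since the interneuron marker Lamp5 and no excitatory marker stood among its 10 leading genes. It had 0.398 for Erbb4 and 51.3 for Nrg1, beside 1.02 and 41.3 in excitatory-like nuclei. The liver-rich cluster led by Cyp2b9 and Cps1 (89 nuclei), which also carried microglia markers, had 2.16 for Egfr and 10.3 for Erbb4. Among excitatory-like clusters Erbb4 was highest, at 3.97, in the cluster led by Abi3bp and Ndst4 (500 nuclei), which also had an Nrg3 level of 66.8. Nrg3 was highest, at 71.3, in the cluster led by Ctgf and Arhgap25 (785 nuclei). Cerebellar granule-like nuclei (93, from No_index libraries) had 38.3 ± 4.26 for Nrg1, 52.2 ± 5.95 for Nrg3 and 2.25 ± 0.858 for Erbb4 (n = 4). These values depended on the clustering. At the finer clustering resolution, a cerebellar granule-like cluster of 95 nuclei had pooled levels of 39.9, 52.3 and 2.53 for these genes. A further cerebellar granule-like cluster, led by Fat2 and Cbln3 (186 nuclei), had 19.8, 23.7 and 7.08. The libraries of these finer clusters are not given here.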
